A study of Mus musculus with 33 samples.

Results

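Glycolysis splits glucose into pyruvate in the cytosol, and pyruvate is then reduced to lactate or carried into mitochondria. The genes described here are 33 genes of that route, chosen by name: 2 glucose carriers, 9 genes of the preparatory steps, 6 of the payoff steps, 3 of side branches, 4 of lactate handling, 4 regulators and 5 of pyruvate entry into mitochondria. All 33 were found by symbol in the count tables, among 18054 gene rows of experiment 1 and 18052 of experiment 2. After the filter on low counts, 31 were tested in experiment 1 and 32 in experiment 2.

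The preparatory phase spends ATP to turn glucose into triose phosphates, and the payoff phase returns ATP and NADH while making pyruvate. Activated T cells are known to raise glucose uptake and lactate production, partly through the transcription factors Myc and HIF-1, while resting memory T cells are known to rely more on mitochondrial oxidation. Txnip, a protein known to remove glucose carriers from the cell surface, is transcribed when glucose metabolites are plentiful.

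RNA of CD8 T cells sorted from skin was sequenced by CEL-seq2, which counts the 3' ends of transcripts, in mice allergic to the hapten DNFB (dinitrofluorobenzene). Experiment 1 used Nur77GFP mice, whose GFP marks cells with a recently triggered antigen receptor, and holds 17 libraries of CD8+CD69+CD103+ resident memory T cells (Trm). They are GFP-positive and GFP-negative cells at day 1 after a DNFB retest, each with TA or acetone on the skin (2 libraries per group), GFP-negative cells at day 6 with TA or acetone (2 each), and GFP-negative cells at day 0 with TA (2) or acetone (3). TA is the topical glucocorticosteroid of the study (0.01%) and acetone its control. Experiment 2 used wild-type C57BL/6 mice and holds 16 libraries, 2 per group. It has CD69+CD103+ Trm at day 11 and at day 42 after challenge, each with TA or acetone, and at day 2, untreated, CD69+CD103+ cells and the other 3 subsets by CD69 and CD103. All mice had been sensitised to DNFB, so no group is free of allergy, and each library is a sorted population of cells.

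The column headers of the tables hold codes that fix a library's treatment or day only in part. Day 0 acetone, the GFP state of day 1 cells and day 2 CD69+CD103+ cells could be read from them. The day 1 arms, one of them TA and the other acetone, are called code 4 and code 3. Codes 6, 5 and 2 are day 0 TA, day 6 TA and day 6 acetone in an order that could not be settled. Codes 5_03, 4_03, 3_03 and 2_03 are the 4 groups of day 11 and day 42, and codes 1_05, 1_04 and 1_02 are the other day 2 subsets. Nothing says that replicates came from separate animals, so each p-value reflects how far these libraries scatter, which may be technical.

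Libraries held 2442825 to 8515297 counts in experiment 1 and 2937814 to 13629838 in experiment 2, with 22.2 to 36.7% and 12.8 to 21.3% of counts on mitochondrial transcripts. The 6 libraries of codes 4 and 2 held the fewest counts of experiment 1, 2442825 to 3262545, against 3488476 or more in the others. Their mitochondrial shares of 29.3 to 36.7% took in that of day 0 acetone library B (31.6%). Markers of CD8 T cells summed to 4129 to 7325 CPM (counts scaled to a common effective library size) over all libraries. Keratinocyte markers summed to 332 to 6942 CPM, so transcripts of skin cells were present in every library. In such bulk samples, fewer cells of a type and less RNA per cell cannot be told apart.

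Together the 33 genes took 2065 to 5050 CPM in experiment 1 and 2906 to 6805 CPM in experiment 2. In code 4 their sum was 4089 and 3965 CPM in GFP-positive libraries, against 2440 and 2430 CPM in GFP-negative libraries. In code 3 it was 4654 and 5050 CPM in GFP-positive libraries, against 4177 and 3675 CPM in GFP-negative libraries. Within each arm both GFP-positive libraries exceeded both GFP-negative libraries. Code 6 stood at 4608 and 4611 CPM, code 5 at 3958 and 3677 CPM and code 2 at 2065 and 2329 CPM, against 3079, 3105 and 2875 CPM at day 0 acetone. Code 2 libraries were the lowest of experiment 1. In experiment 2 the 8 libraries of day 11 and day 42 held 2906 to 4048 CPM, against 6712 and 6507 CPM in day 2 CD69+CD103+ cells. The other day 2 subsets held 5503 and 4724 CPM (code 1_05), 4922 and 4738 CPM (code 1_04) and 6805 and 6505 CPM (code 1_02).

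Across the 8 sorted sets of experiment 1, 18 of the 31 tested genes differed between sets (edgeR's quasi-likelihood F test, Benjamini-Hochberg adjusted p under 0.05), against 30.6% of all 11588 genes tested. Across the 8 sets of experiment 2, 11 of 32 differed, against 11.6% of all 12236 genes. Called in both experiments were Slc2a3, Hk2, Gpi1, Tpi1, Gapdh, Pgk1, Pgam1, Pkm, Ldha and Hif1a. Of the 5 pyruvate entry genes, Pdhb was called in experiment 1 (edgeR adjusted p = 0.0133) and none in experiment 2.

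**Figure D1:**
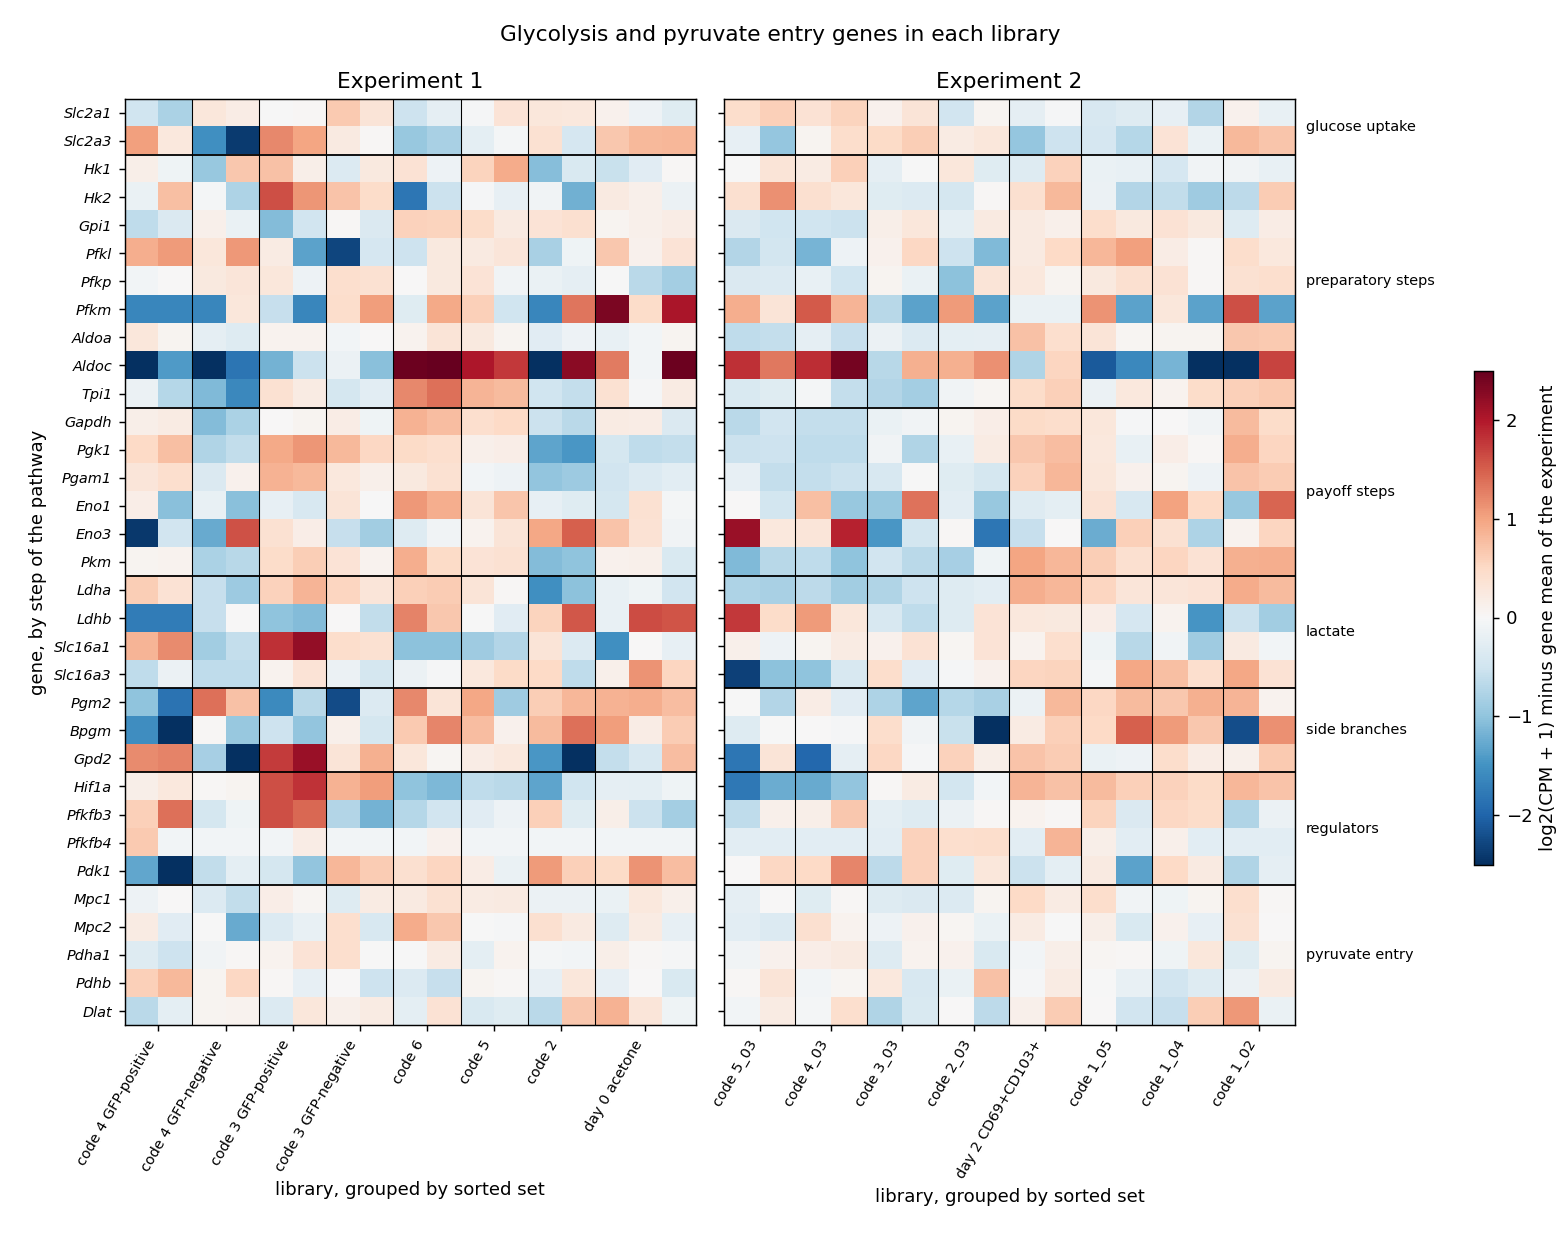
Level of each of the 33 genes in each library, as log2(CPM + 1) minus the gene's mean over the experiment, with genes in rows by step of the pathway and libraries in columns by sorted set; colours stop at 2.5 in either direction. Pgk1 and Ldha are low in code 4 GFP-negative and code 2 cells (Ldha 445 to 564 and 287 to 408 CPM) and in the 4 sets of day 11 and day 42 (Ldha 536 to 817 CPM). Pgk1 is also low at day 0 acetone, at 243 to 280 CPM, against 225 to 248 CPM in code 4 GFP-negative cells.

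Promoters of some called genes are shown as RefSeq gives them (build GRCm38.p6), 250 bases before to 50 after the transcript start. They run 5' to 3' on the gene's strand. Pgk1 (chrX:106186850-106187149, plus strand), the first promoter of Ldha (chr7:46845554-46845853, plus strand) and Pgam1 (chr19:41911621-41911920, plus strand) belong to genes that were higher in GFP-positive cells, and Gpi1 (chr7:34230287-34230586, minus strand) to one that was lower. Capitals mark ACGTG or GCGTG on either strand, the letters at the core of the hypoxia response element that HIF-1 is known to bind. The E-box CACGTG, which Myc is known to bind, holds ACGTG on both strands, so each E-box also counts as a pair of ACGTG matches.
Pgk1: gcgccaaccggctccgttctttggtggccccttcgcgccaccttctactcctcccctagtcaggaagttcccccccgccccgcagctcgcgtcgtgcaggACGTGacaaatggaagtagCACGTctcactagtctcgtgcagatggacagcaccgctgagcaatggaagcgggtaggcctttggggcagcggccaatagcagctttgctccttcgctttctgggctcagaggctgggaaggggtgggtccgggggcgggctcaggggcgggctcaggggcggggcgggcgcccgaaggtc
Ldha: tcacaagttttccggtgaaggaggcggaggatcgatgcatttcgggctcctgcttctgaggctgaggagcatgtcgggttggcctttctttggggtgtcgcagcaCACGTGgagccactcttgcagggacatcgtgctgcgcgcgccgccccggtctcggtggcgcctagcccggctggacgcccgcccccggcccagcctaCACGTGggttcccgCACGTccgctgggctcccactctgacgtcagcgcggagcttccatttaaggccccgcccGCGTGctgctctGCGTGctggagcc
Pgam1: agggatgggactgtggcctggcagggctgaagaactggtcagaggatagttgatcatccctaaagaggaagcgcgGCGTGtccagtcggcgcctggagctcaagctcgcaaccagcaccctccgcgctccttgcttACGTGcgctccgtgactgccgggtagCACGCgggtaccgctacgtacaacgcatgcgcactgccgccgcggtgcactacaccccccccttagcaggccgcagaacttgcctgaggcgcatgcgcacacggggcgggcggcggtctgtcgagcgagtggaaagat
Gpi1: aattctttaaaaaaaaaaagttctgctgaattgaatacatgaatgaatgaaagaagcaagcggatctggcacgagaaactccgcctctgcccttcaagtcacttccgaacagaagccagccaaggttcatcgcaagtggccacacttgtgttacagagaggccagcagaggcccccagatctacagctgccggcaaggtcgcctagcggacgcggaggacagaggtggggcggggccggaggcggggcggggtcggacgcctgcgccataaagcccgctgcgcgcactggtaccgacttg

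The Ldha promoter held 5 ACGTG matches, 2 E-boxes among them, and 2 GCGTG matches. Pgk1 held 2 ACGTG matches, Pgam1 held 1 ACGTG and 2 GCGTG, and Gpi1 held no match in this window. Of the 33 genes, 32 matched a RefSeq promoter entry, with 47 promoters between them. ACGTG or GCGTG occurred in 36 of the 47 (76.6%), against 43.8% of all 32851 promoters of the same length. ACGTG occurred in 44.7% of the members' promoters, against 19.6% of all promoters, GCGTG in 53.2%, against 32.4%, and CACGTG in 10.6%, against 7.15%. These matches describe the letters, and binding was not measured.

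Which transcripts go with a recently triggered receptor was asked by setting GFP-positive against GFP-negative cells at day 1. Averaged over both arms, 14 of 31 tested genes were called, against 12.1% of all genes. Of these, 10 were higher in GFP-positive cells, where 5.59% of all genes were called higher, and 4 were lower, where 6.51% of all genes were called lower. The median log2 difference of the 31 genes was 0.28, against -0.03 over all genes tested. The lactate genes Ldha and Slc16a1, 4 of 6 payoff genes and the carrier gene Slc2a3 were higher. The carrier gene Slc2a1, Gpi1, Ldhb and Pdk1 were lower. None of the 5 pyruvate entry genes was called.

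Both glucose carriers were called, in opposite directions. Slc2a3 (GLUT3, a high-affinity glucose carrier; ENSMUSG00000003153.10, chromosome 6, 122727809 to 122801640, minus strand, GRCm38, GENCODE vM21) stood at 56.2 and 32.5 CPM in code 4 GFP-positive libraries, against 8.66 and 4.37 CPM in code 4 GFP-negative libraries. In code 3 it stood at 63.2 and 54.6 CPM in GFP-positive libraries, against 31.9 and 27.5 CPM in GFP-negative libraries. All 4 GFP-positive libraries lay above all 4 GFP-negative libraries, by a log2 difference of 1.88 ± 0.28 (SE; edgeR adjusted p = 0.000102). Slc2a1 (GLUT1, the carrier known to rise in activated T cells) went the other way, at 22.8 to 40.96 CPM in GFP-positive libraries, against 45.6 to 64.1 CPM in GFP-negative libraries, without overlap. Its log2 difference was -0.695 ± 0.21 (edgeR adjusted p = 0.0321), and the call was lost under 8 of 13 alternatives (adjusted p up to 0.149), 7 of which left out a library, every one but code 3 GFP-negative B.

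Of the 9 preparatory genes, Tpi1 was called higher and Gpi1 lower. Tpi1, the isomerase that interconverts the triose phosphates, stood at 95.01 and 63.9 CPM in code 4 GFP-positive libraries, against 48.7 and 34.1 CPM in code 4 GFP-negative libraries. In code 3 it stood at 137 and 121 CPM in GFP-positive libraries, against 77.4 and 88.4 CPM in GFP-negative libraries. Within each arm the GFP-positive libraries were higher, while across arms the sets overlapped (log2 difference 0.79 ± 0.16, edgeR adjusted p = 0.00220). Gpi1, which turns glucose 6-phosphate into fructose 6-phosphate, was at 96.4 to 159.5 CPM in GFP-positive libraries, against 159.6 to 223 CPM in GFP-negative libraries (log2 -0.54 ± 0.14, edgeR adjusted p = 0.0163). The highest GFP-positive library and the lowest GFP-negative library were nearly equal, and the call was lost under 4 of 13 alternatives (adjusted p up to 0.112), each leaving out library A of one of the 4 sets. The 3' end of Gpi1 matches a transcript of Mrpl27 at 95% identity or more, so its reads may be shared. Hk2, the hexokinase known to be induced in activated T cells, had a log2 difference of 0.78 ± 0.35 (edgeR adjusted p = 0.159). Hk1, the constitutive hexokinase, had 0.22 ± 0.301, the aldolase gene Aldoa 0.28 ± 0.101 and the platelet-type phosphofructokinase gene Pfkp -0.31 ± 0.22, not called.

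Of the 6 payoff genes, Gapdh, Pgk1, Pgam1 and Pkm were higher in GFP-positive cells, with a median log2 difference of 0.56 over the step. Pgk1, which makes the first ATP of the payoff phase (ENSMUSG00000062070.12, chromosome X, 106187100 to 106203699, plus strand), stood at 533 and 638 CPM in code 4 GFP-positive libraries, against 225 and 248 CPM in code 4 GFP-negative libraries. In code 3 it stood at 729 and 815 CPM in GFP-positive libraries, against 665 and 540.2 CPM in GFP-negative libraries. The code 4 sets stood far apart and the code 3 sets close together, with a mean log2 difference of 0.83 ± 0.11 (edgeR adjusted p = 1.815e-05). Pgam1, the phosphoglycerate mutase, was at 338 and 363 CPM in code 4 GFP-positive libraries and at 498 and 481 CPM in code 3 GFP-positive libraries. Its GFP-negative libraries held 212 and 293 CPM in code 4 and 327 and 297 CPM in code 3, all below the 4 GFP-positive libraries (log2 0.56 ± 0.12, edgeR adjusted p = 0.00216). Pkm, the last enzyme before pyruvate, averaged 341 ± 3.885 CPM in code 4 GFP-positive libraries, against 193 ± 9.32 CPM in code 4 GFP-negative libraries (SD, n = 2 each). In code 3 it averaged 470.5 ± 36.85 CPM in GFP-positive libraries, against 378 ± 48.85 CPM in GFP-negative libraries (SD, n = 2 each). Across arms the sets overlapped (mean log2 0.57 ± 0.13, edgeR adjusted p = 0.00502). Gapdh, the enzyme that opens the payoff phase, averaged 152 ± 2.99 CPM in code 4 GFP-positive libraries, against 69.8 ± 10.1 CPM in code 4 GFP-negative libraries (SD, n = 2 each). In code 3 it averaged 138 ± 2.98 CPM in GFP-positive libraries, against 138 ± 19.3 CPM in GFP-negative libraries (SD, n = 2 each). The difference was thus seen in code 4 (log2 1.12 ± 0.21) and not in code 3 (-0.003 ± 0.203). Across arms the sets overlapped (mean log2 0.56 ± 0.15, edgeR adjusted p = 0.0142). The Gapdh call was lost without code 3 GFP-negative library B (adjusted p = 0.0885). The 3' end of Gapdh matches 105 other annotated genes, 102 of them pseudogenes, at 95% identity or more, so its count is uncertain. Enolase genes had few counts, with a median of 4 per library for Eno1 and 26 for Eno3, and neither was called. The 3' end of Eno1 matches Gm5506, which is counted apart, at 95% identity or more. Its reads may be shared, so its count is uncertain too.

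Lactate handling was represented mainly by Ldha and Slc16a1. Ldha, the lactate dehydrogenase subunit known to favour lactate formation (ENSMUSG00000063229.15, chromosome 7, 46841475 to 46855627, plus strand), stood at 1282 and 1078 CPM in code 4 GFP-positive libraries, against 564 and 445 CPM in code 4 GFP-negative libraries. In code 3 it stood at 1256 and 1514 CPM in GFP-positive libraries, against 1215 and 1027 CPM in GFP-negative libraries. As for Pgk1, the gap was wide in code 4 and narrow in code 3 (mean log2 0.76 ± 0.13, edgeR adjusted p = 0.000288). Slc16a1, the monocarboxylate carrier MCT1, was at 25.5 and 32.5 CPM in code 4 and at 51.3 and 66.6 CPM in code 3 GFP-positive libraries. Its GFP-negative libraries held 7.01 and 8.73 CPM in code 4 and 18.9 and 18.02 CPM in code 3, below every GFP-positive library (log2 1.78 ± 0.36, edgeR adjusted p = 0.00185). Ldhb, the subunit known to favour pyruvate, was at 0 to 0.661 CPM in GFP-positive libraries, against 1.19 to 2.38 CPM in GFP-negative libraries. That call (edgeR adjusted p = 0.0418) rests on few counts and was lost under 9 of 13 alternatives (adjusted p up to 0.134), 7 of which left out a library, every one but code 4 GFP-negative A. Slc16a3, the lactate exporter MCT4, had a median of 3 counts and was not tested.

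Among side branches and regulators, Gpd2 and Pfkfb3 were higher and Pdk1 lower in GFP-positive cells. Gpd2, the mitochondrial glycerol 3-phosphate dehydrogenase that passes cytosolic reducing power to the respiratory chain, was at 29.7 and 30.9 CPM in code 4 and at 44.3 and 59.3 CPM in code 3 GFP-positive libraries. Its GFP-negative libraries held 6.60 and 0.397 CPM in code 4 and 15.9 and 23.97 CPM in code 3, with no overlap (log2 2.25 ± 0.48, edgeR adjusted p = 0.00316). Pfkfb3, which makes the fructose 2,6-bisphosphate that activates phosphofructokinase, was at 21.2 and 37.4 CPM in code 4 and at 44.4 and 39.1 CPM in code 3 GFP-positive libraries. Its 4 GFP-negative libraries held 9.90 and 12.7 CPM in code 4 and 7.94 and 5.51 CPM in code 3, again without overlap (log2 2.003 ± 0.36, edgeR adjusted p = 0.000626). Pdk1, a kinase that switches off pyruvate dehydrogenase, averaged 2.25 ± 1.81 CPM in GFP-positive libraries and 7.76 ± 3.94 CPM in GFP-negative libraries (SD over both arms, n = 4 each). The sets overlapped across arms (log2 -1.85 ± 0.59, edgeR adjusted p = 0.0452). The Pdk1 call was lost under 9 of 13 alternatives (adjusted p up to 0.153), 7 of which left out a library, every one but code 4 GFP-positive A. Hif1a, the oxygen-regulated subunit of HIF-1, had a log2 difference of 0.45 ± 0.19 (edgeR adjusted p = 0.140), not called. The pyruvate entry genes had log2 differences of -0.37 ± 0.32 for Dlat to 0.29 ± 0.25 for Mpc1, none called.

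**Figure D2:**
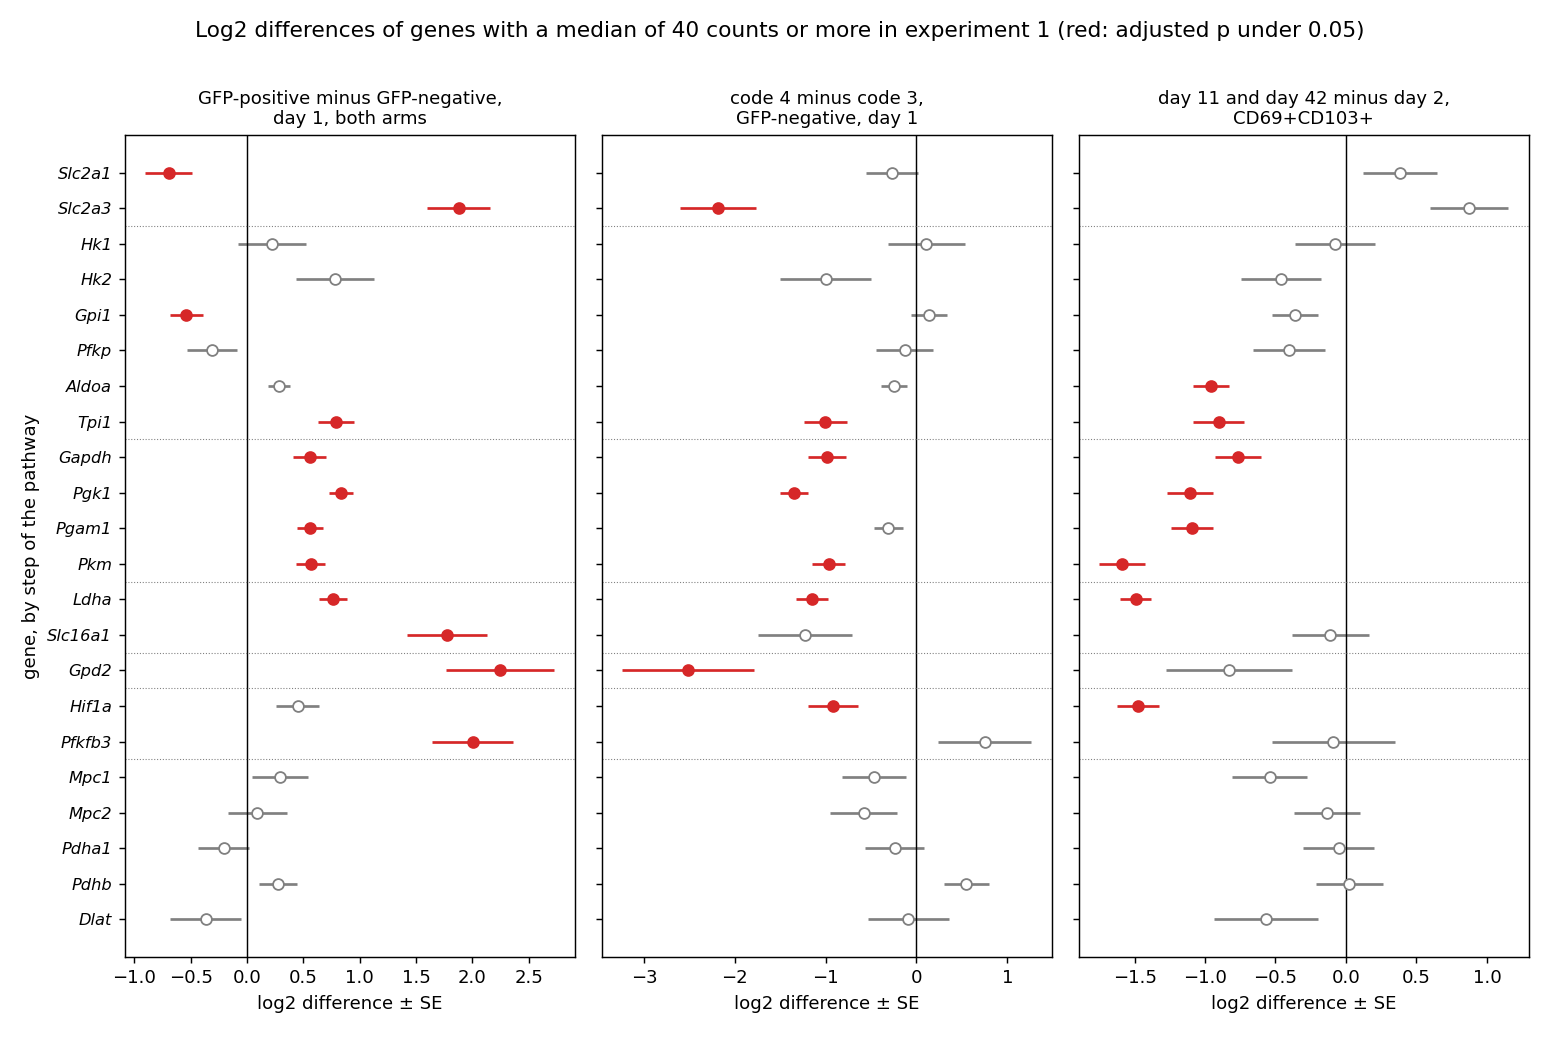
Log2 difference ± SE of the 22 genes with a median of 40 counts or more per library in experiment 1, by step of the pathway, for GFP-positive minus GFP-negative cells (left), code 4 minus code 3 in GFP-negative cells (middle) and day 11 and day 42 minus day 2 in CD69+CD103+ cells (right); red points have an adjusted p under 0.05. Pgk1, Pkm, Gapdh and Ldha lie right of 0 in the left panel and left of 0 in the other panels, and the pyruvate entry genes have no red point.

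Taken arm by arm, GFP-positive cells of code 4 had 8 of 31 genes higher and none lower, against 8.07% of all genes called (4.06% higher and 4.01% lower). GFP-positive cells of code 3 had 3 higher and none lower, against 5.36% of all genes called (2.33% higher and 3.03% lower). Those of code 4 were Slc2a3 (log2 2.77 ± 0.42), Tpi1 (0.94 ± 0.24), Gapdh (1.12 ± 0.21), Pgk1 (1.31 ± 0.15), Pkm (0.82 ± 0.18), Gpd2 (3.12 ± 0.74), Ldha (1.22 ± 0.18) and Slc16a1 (1.88 ± 0.52). Those of code 3 were Pgam1 (0.65 ± 0.16), Slc16a1 (1.68 ± 0.49, edgeR adjusted p = 0.04997) and Pfkfb3 (2.64 ± 0.51). The Slc16a1 call of code 3 was lost under 6 of 9 alternatives, among them median-of-ratios scaling and the replicate block. Leaving out any 1 of the 4 libraries of its arm ended the calls of Slc16a1 (adjusted p up to 0.141 in code 4 and 0.296 in code 3) and of Pgam1 in code 3 (adjusted p up to 0.1996). In code 4 Tpi1 was lost without GFP-negative library B or GFP-positive library A (adjusted p up to 0.220) and Gpd2 without GFP-negative library B (adjusted p = 0.0762). In code 3 Pfkfb3 was lost without GFP-negative library B (adjusted p = 0.0611). The test of the difference between the arms called 1 of 31, against 0.889% of all genes (0.639% higher). It was Pgk1, whose GFP difference was larger in code 4 by 0.95 ± 0.21 on the log2 scale (edgeR adjusted p = 0.0357), and the call was lost under 7 of 13 alternatives (adjusted p up to 0.228), 6 of which left out a library, every one but code 4 GFP-positive A and code 3 GFP-negative B. Gapdh (1.12 ± 0.29, edgeR adjusted p = 0.0856), Ldha (0.92 ± 0.25, edgeR adjusted p = 0.106) and Slc2a3 (1.78 ± 0.55, edgeR adjusted p = 0.165) had differences between arms that did not pass.

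Of 62 tested genes on a list of related pathways, 5 were higher and 10 lower in GFP-positive cells. Of all genes, 5.59% were called higher and 6.51% lower. Txnip had 202 and 101 CPM in code 4 and 68.3 and 63.6 CPM in code 3 GFP-positive libraries, against 702 and 818 CPM in code 4 and 189.5 and 226 CPM in code 3 GFP-negative libraries. Within each arm it was lower in GFP-positive cells (log2 -1.99 ± 0.19, edgeR adjusted p = 5.527e-07), with -2.33 ± 0.27 in code 4 and -1.66 ± 0.26 in code 3. Myc was higher, at 85.9 ± 23.7 CPM in GFP-positive libraries and 36.9 ± 22.8 CPM in GFP-negative libraries (SD over both arms, n = 4 each). Its log2 difference was 1.29 ± 0.35 (edgeR adjusted p = 0.0177), and it was not called in code 4 (1.06 ± 0.49) or code 3 (1.52 ± 0.49) alone. The Myc call was lost without code 4 GFP-negative B, code 3 GFP-positive A or code 3 GFP-negative A (adjusted p up to 0.0806). Ndrg1 was higher (log2 1.64 ± 0.24), while Pygl, liver-type glycogen phosphorylase (-2.47 ± 0.42), and Gpd1l, a relative of cytosolic glycerol 3-phosphate dehydrogenase (-5.67 ± 0.94), were lower. Ndrg1 is 1 of 12 hypoxia targets on the list, of which 11 were tested, 3 were higher and 3 lower, beside the same shares of all genes. The lower ones, named after their values were seen, were Egln1 (-0.93), Bnip3 (-0.999) and Bnip3l (-0.58). Beside these, 5 of 13 tested mononuclear phagocyte markers were higher in GFP-positive cells. They summed to 365 to 420.2 CPM in code 4 and 885 to 1012 CPM in code 3 GFP-positive libraries, against 69.7 to 86.5 CPM in code 4 and 912 to 1019 CPM in code 3 GFP-negative libraries. Lyz2, C1qa, C1qb, C1qc, Csf1r, Adgre1 and Tyrobp were at 0 in code 4 GFP-negative cells, and Adgre1 was at 0 in the GFP-positive sets as well. Of the CD8 T cell markers, 2 of 7 were lower, with sums of 4302 to 4428 CPM in code 4 and 4315 to 4629 CPM in code 3 GFP-positive libraries, against 4152 to 4533 CPM in code 4 and 5642 to 6236 CPM in code 3 GFP-negative libraries. Within code 4, 5 of 15 keratinocyte markers were higher and 1 lower in GFP-positive cells, with sums of 574 to 679 CPM in GFP-positive libraries, against 332 to 459.6 CPM in GFP-negative libraries. Within code 3, 4 of 8 proliferation markers were lower, with sums of 63.6 to 105 CPM in GFP-positive libraries, against 298 to 324 CPM in GFP-negative libraries. The part of these markers in the results was not tested.

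The day 1 arms, one of them TA and the other acetone, were then compared within each GFP state. In GFP-negative cells 8 of 31 genes were lower in code 4 than in code 3 and none was higher, against 6.69% of all genes called (4.7% lower and 1.98% higher). The median log2 difference was -0.46, against -0.07 over all genes. They were the carrier gene Slc2a3, Tpi1, 3 of 6 payoff genes, Gpd2, Ldha and Hif1a. In each of the 8 genes both code 4 libraries lay below both code 3 libraries. The share of all genes separated in this way was not counted, so the separation is no support beyond the calls. Both code 4 libraries also lay below both code 3 libraries in some members that were not called, such as Slc2a1, Hk2, Aldoa and Pgam1. Other uncalled members lay the other way, such as Pfkl, Pfkfb3, Pdhb and the gene labelled Pgm2. In these both code 4 libraries were above both code 3 libraries.

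Slc2a3 stood at 8.66 and 4.37 CPM in code 4, against 31.9 and 27.5 CPM in code 3 (log2 -2.19 ± 0.42, edgeR adjusted p = 0.00242). Tpi1 averaged 41.4 ± 10.3 CPM in code 4 and 82.9 ± 7.83 CPM in code 3 (SD, n = 2 each; log2 -1.003 ± 0.23, edgeR adjusted p = 0.0118). Gapdh stood at 62.7 and 76.99 CPM in code 4, against 152 and 125 CPM in code 3 (log2 -0.98 ± 0.21, edgeR adjusted p = 0.00619). Tpi1 and Gapdh act in sequence, where the triose phosphates enter the payoff phase, and each lost its call under 2 of 9 alternatives. For Tpi1 these left out code 4 library B or code 3 library B (adjusted p up to 0.142), and for Gapdh code 4 library A or code 3 library A (adjusted p up to 0.0757). Pgk1 averaged 236 ± 16.2 CPM in code 4 and 603 ± 88.4 CPM in code 3 (SD, n = 2 each; log2 -1.35 ± 0.15, edgeR adjusted p = 6.545e-06). Pkm stood at 187 and 200 CPM in code 4, against 412 and 343 CPM in code 3 (log2 -0.97 ± 0.18, edgeR adjusted p = 0.00235). Ldha averaged 505 ± 84.1 CPM in code 4 and 1121 ± 133 CPM in code 3 (SD, n = 2 each; log2 -1.15 ± 0.18, edgeR adjusted p = 0.000338). Slc2a3, Pgk1, Pkm and Ldha kept their calls under each of 9 alternatives. Gpd2 averaged 3.50 ± 4.39 CPM in code 4 and 19.9 ± 5.73 CPM in code 3 (SD, n = 2 each; log2 -2.52 ± 0.72, edgeR adjusted p = 0.0418), and lost its call without code 4 library B or without either code 3 library (adjusted p up to 0.239). Hif1a stood at 44.5 and 46.04 CPM in code 4, against 79.95 and 91.6 CPM in code 3 (log2 -0.92 ± 0.27, edgeR adjusted p = 0.0484), and its call was lost under 7 of 9 alternatives (adjusted p up to 0.183), among them any of the 4 libraries left out.

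In GFP-positive cells 1 of 31 genes was lower in code 4 and none higher, against 3.17% of all genes called (2.24% lower). It was Hif1a (ENSMUSG00000021109.13, chromosome 12, 73901375 to 73947530, plus strand), at 48.3 and 52.5 CPM in code 4, against 135 and 154 CPM in code 3. The arms did not overlap, and the log2 difference of -1.52 ± 0.27 (edgeR adjusted p = 0.00295) kept its call under all 9 alternatives. Among the others, Pdhb, a subunit of pyruvate dehydrogenase, had 0.79 ± 0.24 (edgeR adjusted p = 0.0902), Tpi1 -0.699 ± 0.23, Pgam1 -0.48 ± 0.16 and Pgk1 -0.4004 ± 0.15, not called. The median log2 difference was -0.48, against -0.09 over all genes.

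Txnip was higher in code 4 in both GFP states, by 1.87 ± 0.26 among GFP-negative cells (edgeR adjusted p = 0.000124) and by 1.1997 ± 0.26 among GFP-positive cells (edgeR adjusted p = 0.0145), the last lost without code 4 library A or either code 3 library (adjusted p up to 0.289). Myc had log2 differences of 1.11 ± 0.496 and 0.65 ± 0.48 in those states, neither called. Among GFP-negative cells Ndrg1 (-1.91 ± 0.34) and Got2 of the malate-aspartate shuttle (-1.504 ± 0.32) were lower in code 4, and Bnip3l, a mitophagy gene known to respond to hypoxia, was higher (0.98 ± 0.203). Bnip3l was also higher in code 4 among GFP-positive cells (0.81 ± 0.204).

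Markers of other cells and of division moved too. Among GFP-negative cells 9 of 15 tested keratinocyte markers, 4 of 13 mononuclear phagocyte markers and 6 of 8 proliferation markers were lower in code 4. Keratinocyte markers summed to 332 to 459.6 CPM in code 4 (Krt6b and Krt77 at 0), against 2261 to 2779 CPM in code 3 (Krt77 at 0). Phagocyte markers summed to 69.7 to 86.5 CPM in code 4, against 912 to 1019 CPM in code 3 (Lyz2 and Adgre1 at 0). Proliferation markers summed to 21.9 to 25 CPM in code 4, against 298 to 324 CPM in code 3. Of the CD8 T cell markers, 3 of 7 were lower too, with sums of 4152 to 4533 CPM in code 4, against 5642 to 6236 CPM in code 3. Among GFP-positive cells, 7 of 15 keratinocyte markers were lower and 1 higher in code 4, with sums of 574 to 679 CPM in code 4, against 1246 to 1703 CPM in code 3. Of their proliferation markers 3 of 8 were lower, at 21.2 to 42.8 CPM in code 4, against 63.6 to 105 CPM in code 3. Of their phagocyte markers 1 of 13 was lower, at 365 to 420.2 CPM in code 4, against 885 to 1012 CPM in code 3. Code 4 GFP-negative libraries also held 2442825 and 2519106 counts, against 5440609 and 6741144 in code 3. The part of these in the differences between arms was not tested.

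**Figure D3:**
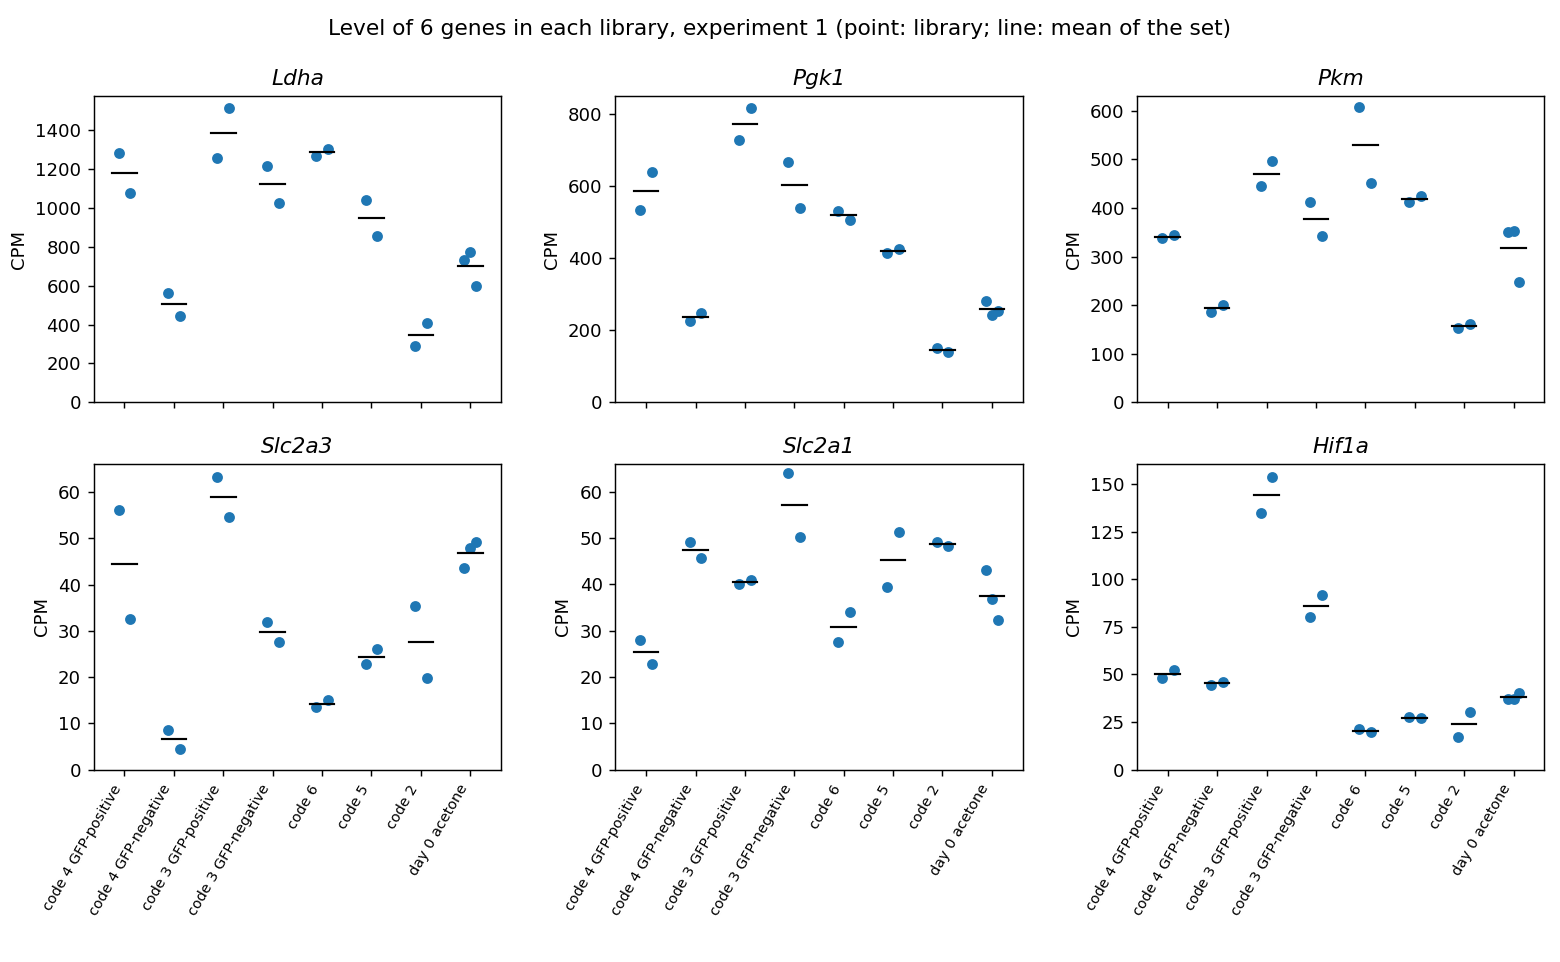
CPM of Ldha, Pgk1, Pkm, Slc2a3, Slc2a1 and Hif1a in each library of experiment 1 (points) with the mean of each sorted set (lines). Slc2a3 is lowest in code 4 GFP-negative cells at 8.66 and 4.37 CPM, Hif1a is highest in code 3 GFP-positive cells at 135 and 154 CPM, and Ldha is lowest in code 2 at 287 and 408 CPM.

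Day 1 and the coded sets were also set against day 0 acetone cells, sorted just before the retest. These comparisons share the 3 day 0 acetone libraries, so they are not independent of each other. In GFP-positive cells at day 1, averaged over arms, 14 of 31 genes were called, against 25.6% of all genes. Of these, 7 were higher (10.8% of all genes) and 7 lower (14.7%). Higher were Pgk1, Pgam1, Gpd2, Ldha, Slc16a1, Hif1a and Pfkfb3. Lower were Gpi1 and 6 genes of few counts, Pfkm, Aldoc, the gene labelled Pgm2, Bpgm, Ldhb and Pdk1. In none of the 14 did the sets overlap, nor did they in Aldoa, which was not called. How many of all genes lacked overlap was not counted, so this adds nothing to the calls.

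Pgk1 stood at 533 to 815 CPM in GFP-positive cells, against 243 to 280 CPM at day 0 (log2 1.38 ± 0.12, edgeR adjusted p = 3.895e-08). Pgam1 stood at 338 to 498 CPM in GFP-positive cells, against 196 to 228 CPM at day 0 (log2 0.96 ± 0.13, edgeR adjusted p = 1.084e-05). Slc16a1 stood at 25.5 to 66.6 CPM in GFP-positive cells, against 4.05 to 13.9 CPM at day 0 (log2 2.06 ± 0.39, edgeR adjusted p = 0.000578). Of the other higher genes, Ldha had a log2 difference of 0.87 ± 0.14, Hif1a 1.16 ± 0.21, Gpd2 1.62 ± 0.498 and Pfkfb3 1.71 ± 0.39. The arms were unlike for Hif1a, at 48.3 to 52.5 CPM in code 4 and 135 to 154 CPM in code 3 GFP-positive cells, against 36.9 to 40.15 CPM at day 0. The Gpd2 call was lost without day 0 A, day 0 B or code 3 GFP-positive B (adjusted p up to 0.107). Gpi1 was at 96.4 to 159.5 CPM in GFP-positive cells, against 214 to 233 CPM at day 0 (log2 -0.74 ± 0.15, edgeR adjusted p = 0.00111). Aldoc, the brain-type aldolase, was at 0 to 5.36 CPM in GFP-positive cells, against 7.71 to 48.9 CPM at day 0, and its call was lost under 5 of 12 alternatives (adjusted p up to 0.0985), among them code 4 GFP-positive A, either code 3 library or day 0 C left out. Bpgm, which makes 2,3-bisphosphoglycerate, was at 0 to 3.04 CPM in GFP-positive cells, against 5.61 to 10.9 CPM at day 0. Pdk1 was at 0 to 4.37 CPM in GFP-positive cells, against 9.16 to 14.7 CPM at day 0. The row labelled Pgm2, a phosphoglucomutase that GENCODE vM21 names Pgm1 (ENSMUSG00000025791.18, chromosome 4, 99929414 to 99987294, plus strand), was at 0.814 to 3.06 CPM in GFP-positive cells, against 10.2 to 11.4 CPM at day 0, and lost its call without code 3 GFP-positive A (adjusted p = 0.0522). These low-count genes stood in GFP-positive cells near the level of a few counts per library. Myc was higher (log2 3.05 ± 0.42) and Txnip lower (-1.46 ± 0.195) than at day 0, and among other pathway genes Ndrg1 (3.104 ± 0.28) and Got1 of the malate-aspartate shuttle (1.88 ± 0.21) were higher and Pygl lower (-4.07 ± 0.43). Beside these, 7 of 8 proliferation markers were lower, with sums of 21.2 to 42.8 CPM in code 4 and 63.6 to 105 CPM in code 3 GFP-positive cells, against 486 to 693 CPM at day 0. Of the keratinocyte markers 4 of 15 were higher and 8 lower, with sums of 574 to 679 CPM in code 4 and 1246 to 1703 CPM in code 3 GFP-positive cells, against 2466 to 3030 CPM at day 0. Of the phagocyte markers 6 of 13 were higher and 2 lower, with sums of 365 to 420.2 CPM in code 4 and 885 to 1012 CPM in code 3 GFP-positive cells, against 304 to 437 CPM at day 0. Of the CD8 T cell markers 1 of 7 was higher and 4 lower, with sums of 4302 to 4428 CPM in code 4 and 4315 to 4629 CPM in code 3 GFP-positive cells, against 6284 to 7241 CPM at day 0. Of the fibroblast markers 1 of 7 was higher and 5 lower, and of the neutrophil markers 2 of 4 were higher. Their part in the result was not tested.

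GFP-negative cells at day 1 held different called genes in each arm when set against day 0. In code 4, 4 genes were lower and none higher, against 8.63% of all genes called (5.15% lower and 3.48% higher). They were Slc2a3 (log2 -2.85 ± 0.405, edgeR adjusted p = 0.000108), Tpi1 (-1.55 ± 0.22), Gapdh (-0.97 ± 0.196) and Pkm (-0.72 ± 0.17). Gapdh and Pkm lost their calls without code 4 library A (adjusted p = 0.0510 and 0.0748). In code 3, 4 genes were higher and none lower, against 3.94% of all genes called (2.78% higher and 1.16% lower). They were Pgk1 (1.22 ± 0.13, edgeR adjusted p = 8.891e-06), Hif1a (1.17 ± 0.24), Ldha (0.68 ± 0.16) and Pgam1 (0.55 ± 0.15), of which Pgam1 lost its call under 8 of 10 alternatives (adjusted p up to 0.310), among them any of the 5 libraries left out. The Ldha call was lost under 3 of 10 alternatives (adjusted p up to 0.220), among them day 0 C or code 3 library A left out, and the Hif1a call without code 3 library B (adjusted p = 0.108). Ldha stood at 564 and 445 CPM in code 4 and at 1215 and 1027 CPM in code 3, against 597 to 774 CPM at day 0. The code 3 libraries were above and the code 4 libraries below the day 0 libraries, and in code 4 the difference of -0.47 ± 0.16 was not called. Txnip was higher than at day 0 in code 4 (1.46 ± 0.23) and had -0.41 ± 0.23 in code 3, not called. Myc was higher in code 4 (2.32 ± 0.46), a call lost without code 4 library A (adjusted p = 0.0813), and had 1.21 ± 0.45 in code 3, not called. In code 4 Tkt of the pentose phosphate pathway (-1.503 ± 0.31) was lower and Slc2a8, a glucose carrier of intracellular membranes, higher (3.41 ± 0.75). In code 3 Ndrg1 (2.42 ± 0.296) and Got1 (1.42 ± 0.23) were higher and Pygl (-2.62 ± 0.49) and Bnip3l (-0.82 ± 0.19) lower. Keratinocyte, phagocyte and proliferation markers differed beside these, with day 0 sums of 2466 to 3030, 304 to 437 (Lyz2, C1qa and Adgre1 at 0) and 486 to 693 CPM. In code 4, 8 of 15, 4 of 13 and 8 of 8 of them were lower. In code 3, 4 of 13 phagocyte markers were higher, with sums of 912 to 1019 CPM. Of the keratinocyte markers 5 of 15 were higher and 4 lower in code 3 (2261 to 2779 CPM), 2 of 8 proliferation markers were lower (298 to 324 CPM), and 2 of 4 neutrophil markers were higher, at 88.5 to 89.5 CPM, against 2.49 to 10.5 CPM at day 0. Of the CD8 T cell markers 3 of 7 were lower in code 4, and 2 lower and 1 higher in code 3. The part of these markers was not tested.

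Codes 6, 5 and 2 cover day 0 TA and both day 6 groups. Among them 6 of 31 genes differed (edgeR F test over the 3 codes), against 9.48% of all genes, and these were Tpi1, Gapdh, Pgk1, Pgam1, Pkm and Ldha, which act from the triose phosphates down to lactate. Pgk1 stood at 531 and 506 CPM in code 6, 414 and 426 CPM in code 5 and 152 and 138 CPM in code 2 (edgeR adjusted p = 2.987e-07). Ldha stood at 1267 and 1305 CPM in code 6, 1042 and 858 CPM in code 5 and 287 and 408 CPM in code 2 (edgeR adjusted p = 2.48e-06). Tpi1 stood at 246 and 275 CPM in code 6, 190.4 and 184 CPM in code 5 and 74.8 and 69.8 CPM in code 2 (edgeR adjusted p = 6.581e-05). In each of these genes the order was code 6, then code 5, then code 2, without overlap between codes. Against day 0 acetone, 6 genes were higher and 2 lower in code 6 (4.56% of all genes called, 2.86% higher and 1.7% lower). In code 5, 1 was higher and none lower (0.897% of all genes called, 0.276% higher and 0.621% lower), and in code 2, 4 were lower and none higher (3.53% of all genes called, 2.34% lower).

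In code 6 the higher genes were Tpi1 (log2 1.097 ± 0.199), Gapdh (0.799 ± 0.18), Pgk1 (1.01 ± 0.13), Pgam1 (0.67 ± 0.15), Pkm (0.74 ± 0.16) and Ldha (0.87 ± 0.16). The Gapdh call was lost under 4 of 10 alternatives (adjusted p up to 0.105), among them either code 6 library or day 0 C left out. The Pkm call was lost under 3 of 10 alternatives (adjusted p up to 0.206), among them code 6 library A or day 0 C left out, and the Pgam1 call without code 6 library B (adjusted p = 0.140). The lower ones were Slc2a3 (-1.72 ± 0.35), at 13.5 and 15.02 CPM in code 6, against 43.7 to 49.1 CPM at day 0, and Hif1a (-0.902 ± 0.25). The Slc2a3 call was lost when either code 6 library was left out (adjusted p up to 0.126), and the Hif1a call under 8 of 10 alternatives (adjusted p up to 0.353), among them any of the 5 libraries left out. In code 5 Pgk1 was higher (0.702 ± 0.13, edgeR adjusted p = 0.00958), a call lost under 5 of 10 alternatives (adjusted p up to 0.214), among them either code 5 library, day 0 B or day 0 C left out. In code 2 the lower genes were Pgk1 (-0.83 ± 0.14), Pgam1 (-0.596 ± 0.15), Pkm (-1.02 ± 0.17) and Ldha (-1.01 ± 0.17). The Pgam1 call was lost under 4 of 10 alternatives (adjusted p up to 0.193), among them no low-count filter and either code 2 library left out. Txnip was higher in code 2 (1.54 ± 0.23, edgeR adjusted p = 0.000398), and had 0.23 ± 0.23 in code 6 and -0.21 ± 0.23 in code 5, not called. Myc was not called in code 6 (0.13 ± 0.46), code 5 (-0.47 ± 0.48) or code 2 (0.51 ± 0.48). Mdh2, mitochondrial malate dehydrogenase, was higher in code 6 (0.904 ± 0.19) and Slc2a8 in code 2 (3.98 ± 0.76). Beside these, proliferation markers summed to 1362 to 1428 CPM in code 6, 1249 to 1296 CPM in code 5 and 60.2 to 77.5 CPM in code 2, against 486 to 693 CPM at day 0, with 3 of 8 higher in code 6 and 6 of 8 lower in code 2. Keratinocyte markers summed to 5123 to 5248 CPM in code 6, 802 to 810.1 CPM in code 5 and 1629 to 1664 CPM in code 2, against 2466 to 3030 CPM at day 0, with 8 of 15 higher and 1 lower in code 6, 9 lower in code 5, and 1 higher and 2 lower in code 2. Of the phagocyte markers 5 of 13 were lower in code 2, with sums of 78.3 to 134 CPM in code 2, against 304 to 437 CPM at day 0. Of the CD8 T cell markers 2 of 7 were lower in code 6 and 2 in code 2, with sums of 6155 to 7151 CPM in code 6 and 5312 to 5430 CPM in code 2, against 6284 to 7241 CPM at day 0. The part of these markers in the differences was not tested.

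In experiment 2, CD69+CD103+ cells of day 11 and day 42, averaged over the 4 groups, were set against those of day 2. Of 32 genes 8 were lower in the later cells and none was higher, against 8.21% of all genes called (4.89% lower and 3.33% higher). The median log2 difference was -0.43, against -0.08 over all genes. The 8 were Aldoa, Tpi1, 4 of 6 payoff genes, Ldha and Hif1a.

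Aldoa, which splits fructose 1,6-bisphosphate, was at 452 to 628 CPM in the 8 libraries of day 11 and day 42 (median 568), against 1155 and 936 CPM at day 2 (log2 -0.96 ± 0.13, edgeR adjusted p = 5.948e-05). Tpi1 was at 67.5 to 127 CPM in the later cells (median 96.7), against 169 and 188 CPM at day 2 (log2 -0.904 ± 0.18, edgeR adjusted p = 0.00342). Aldoa and Tpi1 supply the triose phosphates for the payoff phase, and all later libraries lay below day 2. The Tpi1 call was lost without day 2 CD69+CD103+ replicate 2 (adjusted p = 0.0922). Gapdh was at 80.5 to 145 CPM in the later cells (median 104), against 181 and 176 CPM at day 2 (log2 -0.76 ± 0.16, edgeR adjusted p = 0.00527). Pgk1 was at 223 to 435 CPM in the later cells (median 261), against 606 and 642 CPM at day 2 (log2 -1.11 ± 0.17, edgeR adjusted p = 0.000226). Pgam1 was at 202 to 305 CPM in the later cells (median 229), against 457 and 549 CPM at day 2 (log2 -1.09 ± 0.15, edgeR adjusted p = 6.744e-05). These payoff genes were likewise below day 2 in each later library, and the Gapdh call was lost when either day 2 CD69+CD103+ library was left out (adjusted p up to 0.102). Pkm was at 169 to 336 CPM in the later cells (median 225), against 723 and 641 CPM at day 2 (log2 -1.59 ± 0.16, edgeR adjusted p = 2.853e-06). Ldha was at 536 to 817 CPM in the later cells (median 599), against 1844 and 1732 CPM at day 2 (log2 -1.49 ± 0.11, edgeR adjusted p = 6.375e-08). Hif1a was at 84.8 to 339.7 CPM in the later cells (median 182), against 531 and 486 CPM at day 2 (log2 -1.47 ± 0.15, edgeR adjusted p = 2.8e-06). Pkm, Ldha and Hif1a stood in the later cells below every day 2 library of any subset.

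The genes of glucose entry and phosphorylation were not called here. Slc2a3 had a log2 difference of 0.87 ± 0.28 (edgeR adjusted p = 0.0637), Slc2a1 0.38 ± 0.26, Hk2 -0.46 ± 0.28 and the lactate carrier gene Slc16a1 -0.11 ± 0.27. The pyruvate entry genes had -0.57 ± 0.37 for Dlat to 0.02 ± 0.24 for Pdhb. Txnip was higher in the later cells, at 513 to 891 CPM, against 316 and 336 CPM at day 2 (log2 1.08 ± 0.17, edgeR adjusted p = 0.000278), and Myc had 0.29 ± 0.24, not called. Among the 67 tested genes of related pathways, 4 were higher and 4 lower, against 3.33% of all genes called higher and 4.89% lower. Those with the smallest p besides Txnip were Pgm2l1, a glucose 1,6-bisphosphate synthase (2.32 ± 0.39), and Ndrg1 (1.24 ± 0.25), both higher, and Mdh2 (-0.99 ± 0.17), lower. Beside these, 6 of 16 tested keratinocyte markers were lower and 1 higher. They summed to 1684 to 2125 CPM in code 5_03 (Krt77 at 0), 3773 to 5022 CPM in code 4_03, 3228 to 3446 CPM in code 3_03 and 3402 to 3664 CPM in code 2_03, against 4943 to 6942 CPM at day 2. Of 3 tested neutrophil markers 2 were lower, with sums of 2.21 to 19.2 CPM in the later cells (S100a8, Csf3r, Retnlg, Ngp, Camp and Ly6g at 0), against 125 to 131 CPM at day 2. Of the CD8 T cell markers, 2 of 7 were higher, with sums of 5466 to 7325 CPM in the later cells, against 4358 to 4903 CPM at day 2. Their part in the result was not tested. The day 2 cells were untreated, so time and the acetone or TA applied to the later cells cannot be told apart.

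**Figure D4:**
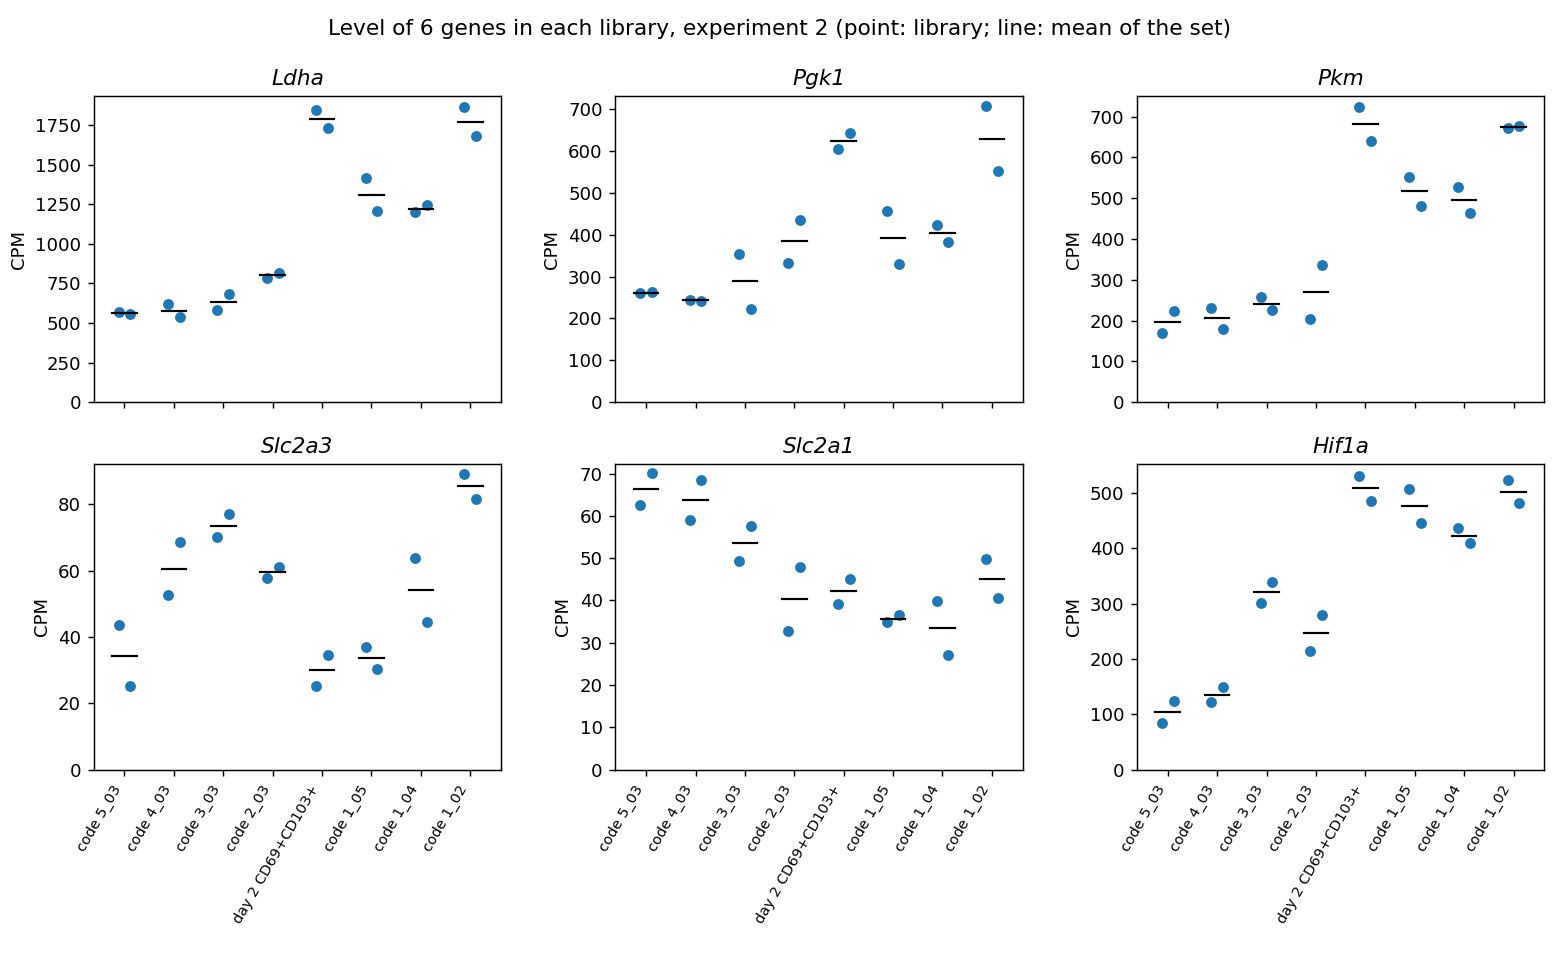
CPM of Ldha, Pgk1, Pkm, Slc2a3, Slc2a1 and Hif1a in each library of experiment 2 (points) with the mean of each sorted set (lines). Ldha and Pkm lie lower in codes 5_03 to 2_03 (day 11 and day 42) than in each day 2 set, and Hif1a is lower in codes 5_03 and 4_03, at 84.8 to 149 CPM, than in codes 3_03 and 2_03, at 214 to 339.7 CPM.

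Among the 4 groups of day 11 and day 42, 1 of 32 genes differed, against 2.12% of all genes. It was Hif1a (edgeR adjusted p = 0.000589), at 84.8 and 123 CPM in code 5_03, 123 and 149 CPM in code 4_03, 301 and 339.7 CPM in code 3_03 and 214 and 279.7 CPM in code 2_03. Codes 5_03 and 4_03 together lay below codes 3_03 and 2_03 without overlap, with a log2 difference of -1.24 ± 0.15 (edgeR adjusted p = 0.000118). In that comparison too it was the 1 gene called of 32, lower, against 1.67% of all genes called (0.785% lower and 0.883% higher). The Hif1a call was kept under all 12 alternatives. Which of day and treatment the codes split by could not be settled. The nearest others were Gpi1 (-0.59 ± 0.15, edgeR adjusted p = 0.0586) and Gapdh (-0.59 ± 0.16, edgeR adjusted p = 0.0687). Myc had 0.73 ± 0.21 and Txnip 0.31 ± 0.14, neither called.

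At day 2, CD69+CD103+ cells minus the mean of the other 3 subsets gave 0 of 32 genes called by edgeR, against 0.368% of all genes (0.049% lower). At an unadjusted p under 0.05 there were 5 of 32, against 6.65% of all genes, and DESeq2 called 0 of 32, against 106 of all 12236 genes. The smallest p-values belonged to Hk2 and Slc2a3, in opposite directions. Hk2 was at 109 and 146 CPM in CD69+CD103+ cells, against 44.1 to 129.8 CPM in the other subsets (log2 0.97 ± 0.29, edgeR adjusted p = 0.287). Slc2a3 was at 25.3 and 34.6 CPM in CD69+CD103+ cells, against 30.2 to 89.1 CPM in the other subsets (log2 -0.85 ± 0.28, edgeR adjusted p = 0.419). Both genes overlapped between the sets. Txnip had -0.47 ± 0.16 and Myc 0.51 ± 0.24, not called. Among the other 3 subsets 0 of 32 genes differed by edgeR, against 0.964% of all genes, with 7 at an unadjusted p under 0.05, against 9.43% of all genes, and 5 by DESeq2, against 396 of all 12236 genes. Pgk1 was at 456 and 330.1 CPM in code 1_05, 423 and 383 CPM in code 1_04 and 706 and 552 CPM in code 1_02 (edgeR adjusted p = 0.271). Ldha was at 1414 and 1206 CPM in code 1_05, 1201 and 1244 CPM in code 1_04 and 1866 and 1679 CPM in code 1_02 (edgeR adjusted p = 0.1996). Code 1_02 libraries were the highest for both genes.

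The remaining members are given by range, as no comparison of a pair of sets called them. Hk2 was at 5.31 to 66.1 CPM over experiment 1 and 44.1 to 184 CPM over experiment 2, and differed over all sets of each (edgeR adjusted p = 0.00715 and 0.0496). Hk1 was at 19.3 to 79.7 CPM over experiment 1 and 31.5 to 64.6 CPM over experiment 2, Pfkp at 22.95 to 56.5 and 44.4 to 122 CPM, and the liver isoform gene Pfkl at 0.198 to 11.5 and 2.05 to 12.98 CPM. The enolase genes Eno1 and Eno3 were at 0 to 3.40 and 0 to 15.1 CPM over experiment 1 and 0 to 4.29 and 0 to 14.6 CPM over experiment 2. The Eno1 values are uncertain, as its reads may be shared with a near copy. Among the genes of pyruvate entry, the carrier subunits Mpc1 and Mpc2 were at 16.3 to 33.6 and 19.1 to 89.9 CPM over experiment 1 and at 29.5 to 54.1 and 44.3 to 76.7 CPM over experiment 2. The pyruvate dehydrogenase genes Pdha1, Pdhb and Dlat were at 20.3 to 39.9, 70.5 to 186 and 16 to 48.8 CPM over experiment 1. Over experiment 2 they were at 35.3 to 57.1, 73.2 to 171 and 18.3 to 68.6 CPM. Slc16a3 was at 0 to 2.38 CPM over experiment 1 and 0 to 8.88 CPM over experiment 2. Pfkfb4, an isoform of the Pfkfb3 enzyme, was at 0 counts in 14 of 17 libraries of experiment 1 and 10 of 16 of experiment 2, and was not tested in either.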

How the data were processed

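The deposited values are raw read counts per gene from CEL-seq2 libraries of RNA from sorted cells. The authors made the counts with bcl2fastq 2.2, BWA 0.7.15 and HTSeq on GRCm38, per the submitters' processing notes. Whether molecular barcodes were collapsed, whether strand was used and which annotation was counted are not given in the sources used here. Columns were mapped by the codes in their headers, and 0 per-sample columns were left unused.

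Each experiment was analysed alone in R 4.3.3. Genes were filtered by expression within sorted sets, scaled by TMM (factors 0.831 to 1.16 in experiment 1 and 0.905 to 1.1 in experiment 2) and fitted over all sorted sets with edgeR 4.0.16 (robust quasi-likelihood, limma 3.58.1). Groups were compared as contrasts of that fit, with p-values adjusted by Benjamini-Hochberg over all genes tested and called under 0.05. CPM use the TMM-scaled library size. Total counts per library set the counting precision, and genes of few counts are marked as such. The scripts were tested on simulated data.

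The members and lists were chosen with earlier results of these data known. Library values, ranges, means or log2 differences are given for up to 8 called members with the smallest p in each main comparison. Up to 4 called genes of a list of 84 related pathway genes are named by the same rule, plus Txnip and Myc. Alternatives were median-of-ratios scaling, no low-count filter, mitochondrial genes left out, a replicate block, DESeq2 1.42.0 and each library left out. In experiment 1 the replicate letters showed no sign of pairing: deviations from set means of same-letter libraries correlated at -0.06 to 0.033 over 21 pairs of sets. This was taken over all tested genes, those of few counts included, so it cannot exclude that same-letter libraries were paired.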

Additional observations from a re-analysis of the deposited data

Results flagged for a closer look

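The difference between GFP-positive and GFP-negative cells in Pgk1 was itself different between the day 1 arms, by a log2 value of 0.95 (code 4 minus code 3), and the difference was tested as an interaction in edgeR (adjusted p = 0.0357). Pgk1 was at 533 and 638 CPM in GFP-positive against 225 and 248 CPM in GFP-negative libraries of code 4, and at 729 and 815 CPM in GFP-positive against 665 and 540.2 CPM in GFP-negative libraries of code 3. Over the 13 alternatives the value ran from 0.77 to 1.10, and the call was lost under 7.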

How the results depend on the processing

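Of 79 calls of members in single comparisons, Txnip and Myc included, 46 were kept under every alternative, 33 were lost under at least 1 and 0 changed direction. Without the low-count filter, 2 members were called for the GFP difference between arms (1 as reported), 7 for code 4 GFP-negative cells against day 0 (4), 3 for codes 4_03 and 5_03 against 2_03 and 3_03 (1), 2 among the 4 day 11 and day 42 groups (1), 1 for day 2 CD69+CD103+ cells against the other subsets (0) and 1 among those subsets (0). With DESeq2 the counts were 5 for GFP in code 3 (3 as reported), 4 for the GFP difference between arms (1), 2 for the arms in GFP-positive cells (1), 7 for code 4 GFP-negative cells against day 0 (4), 7 for code 2 against day 0 (4), 4 for codes 4_03 and 5_03 against 2_03 and 3_03 (1), 4 among the day 11 and day 42 groups (1) and 5 among the other day 2 subsets (0). DESeq2 also called more of all genes in each of these, 978 for GFP in code 3 (621 by edgeR), 299 for the GFP difference between arms (103), 660 for the arms in GFP-positive cells (367), 1520 for code 4 GFP-negative cells (1000) and 755 for code 2 against day 0 (409), 519 for codes 4_03 and 5_03 against 2_03 and 3_03 (204), 849 among the day 11 and day 42 groups (259) and 396 among the other day 2 subsets (118). More members were also called by DESeq2 for GFP averaged over arms, 16 (14), GFP in code 4, 12 (8), and code 3 GFP-negative cells against day 0, 6 (4). So it was among codes 6, 5 and 2, 8 (6), for day 11 and day 42 against day 2, 9 (8), and over all sets of experiment 1, 22 (18), and experiment 2, 14 (11). Of all genes it called, in that order, 1911 (1402), 1460 (935), 791 (457), 1638 (1098), 1328 (1005), 4778 (3549) and 2674 (1418). With the replicate block in experiment 1, 0 members were called for the GFP difference between arms (1 as reported) and 12 for GFP-positive against GFP-negative cells (14). It gave 2 for code 3 GFP-negative cells (4), 0 for code 5 (1) and 5 for code 6 (8), each against day 0. The letters showed no sign of pairing, which does not exclude it. Column headers of experiment 2 carry no letters, so no block could be fitted there. Leaving out each library in turn gave 0 to 2 for GFP in code 3, 0 to 1 for the GFP difference between arms, 5 to 6 for the arms in GFP-negative cells (8 as reported, 5 without code 3 library A or code 4 library B), 2 to 4 for code 3 GFP-negative cells, 0 to 1 for code 5 and 4 to 7 for code 6 against day 0, 1 to 2 for codes 4_03 and 5_03 against 2_03 and 3_03, and 0 to 1 for day 2 CD69+CD103+ cells against the other subsets. A set left with 1 library was taken to vary like the others. Why these counts moved was not tested. With 2 libraries in most sets, and 3 at day 0 acetone, genes of few counts such as Ldhb, Pdk1 and Pfkm have wide errors.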
